A study of Mus musculus with 28 samples.

Results

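The 3 genes described here, Cxcl9, Cxcl10 and Cxcl11, are known as the CXCR3 ligand genes. CXCR3 is a chemokine receptor carried by activated T cells and natural killer cells. The annotation used here lists Cxcl11 as a polymorphic pseudogene, so its transcript is not taken as evidence of a ligand. The 3 genes were taken by symbol from 13394 genes with a row in at least 1 of 2 tables of mouse RNA sequencing. All 3 had a row and were tested in both. The cells were MC38, a mouse colon adenocarcinoma line of C57BL/6 origin. The in vitro table has 5 groups of 2 libraries: untreated, TNF, IFNG (interferon gamma), TNF plus IFNG, and supernatant taken from a co-culture. The other, the co-culture table, has 3 groups of 3 libraries: MC38 alone, MC38 kept with OT1 T cells plus isotype antibody, and the same with anti-PD1 in place of the isotype. OT1 T cells are CD8 T cells with a transgenic receptor for an ovalbumin peptide, and the labels do not say whether the MC38 cells carried ovalbumin. Treatment lasted 6 h, but no time is recorded for the supernatant, and nothing read here says how MC38 was separated from the T cells.

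Interferon gamma acts through the kinases JAK1 and JAK2 and induces IRF1, a transcription factor. TNF acts through its receptors on NF-kB. Promoters of CXCR3 ligand genes are known targets of both pathways, and in tumours the ligands are known for drawing CXCR3-bearing T cells into the tissue. CXCL9 is regarded as the most dependent of the ligands on interferon gamma, whereas CXCL10 also answers to type I interferon and to NF-kB.

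The 3 genes lie side by side on the minus strand of mouse chromosome 5 (GRCm38, GENCODE vM21 annotation), within 44.139 kb. Cxcl9 spans chr5:92321347-92328079 and Cxcl10 spans chr5:92346638-92348889, both annotated as protein coding. Cxcl11 spans chr5:92359544-92365485 and is annotated as a polymorphic pseudogene, so its values are transcript counts and say nothing of a protein. Cxcl10 and Cxcl11 lie inside Art3, a gene on the opposite strand at chr5:92331827-92414628. An Art3 exon at chr5:92345112-92346770 shares 133 bases with the 3' end of Cxcl10, at chr5:92346638-92346770. The labels do not state stranded counting, so Art3 reads in that stretch could not be told apart from Cxcl10 reads. Art3 itself had no row in either table used here.

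The bases before the annotated starts are shown because all 3 genes rose with TNF and IFNG combined. Pathways of these cytokines are known to use interferon-response and NF-kB motifs, and the part of such motifs in these changes was not tested. RefSeq promoter entries (GRCm38.p6) matched 2 of the 3 genes, Cxcl9 and Cxcl10. Capitals mark motif matches in the 250 bases before the start, which lie at chr5:92328080-92328329 for Cxcl9 and chr5:92348890-92349139 for Cxcl10, both written 5′ to 3′ on the minus strand.
Cxcl9: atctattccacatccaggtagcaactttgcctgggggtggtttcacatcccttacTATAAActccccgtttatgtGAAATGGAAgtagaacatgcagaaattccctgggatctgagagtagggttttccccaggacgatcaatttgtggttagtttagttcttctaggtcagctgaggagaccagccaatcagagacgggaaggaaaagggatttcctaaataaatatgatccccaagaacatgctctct
Cxcl10: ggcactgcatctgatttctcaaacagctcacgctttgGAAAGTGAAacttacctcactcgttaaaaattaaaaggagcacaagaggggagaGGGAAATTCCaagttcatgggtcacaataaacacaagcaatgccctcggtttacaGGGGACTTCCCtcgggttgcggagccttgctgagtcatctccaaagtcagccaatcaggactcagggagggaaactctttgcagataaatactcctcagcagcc

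Motifs were searched on both strands. The interferon-stimulated response element core (ISRE core, GAAANNGAA) was found in both windows. The match was GAAATGGAA in Cxcl9, from 175 to 167 bases before the start, and GAAAGTGAA in Cxcl10, from 213 to 205 bases before it. The NF-kB consensus was found in Cxcl10 at 159 to 150 bases (GGGAAATTCC), at 104 to 95 bases (GGGGACTTCC) and at 103 to 94 bases (GGGACTTCCC), and the last pair overlap. Neither window held the gamma-activated sequence core (GAS core, TTCNNNGAA), and Cxcl9 held no NF-kB consensus. A TATAAA was found in Cxcl9 at 195 to 190 bases before the start. Among 32851 promoters of the same length, 7.13% held the ISRE core, 7.02% the GAS core, 7.25% the NF-kB consensus and 12.4% TATAAA. A match is a string of letters and no measurement of binding.

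**Figure D1:**
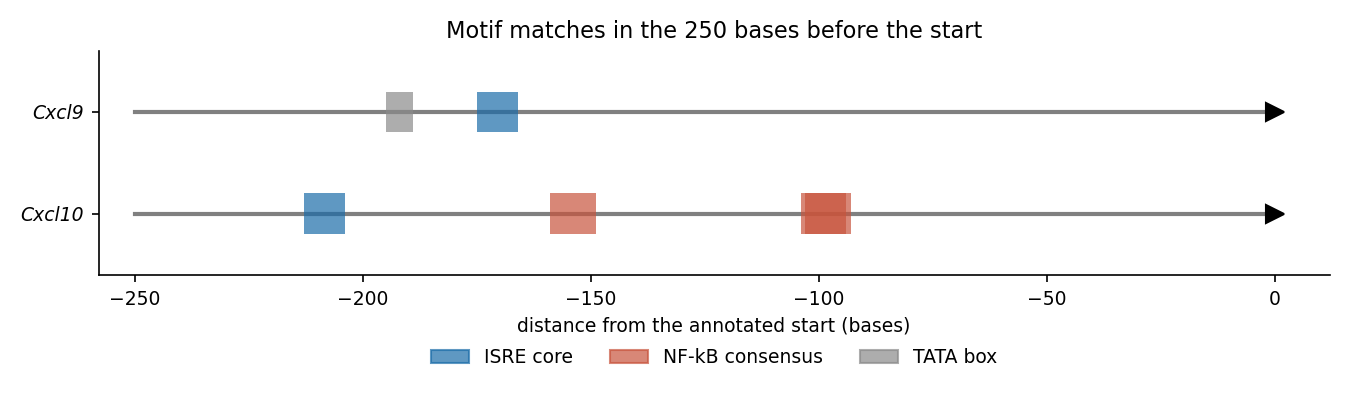
Motif matches in the 250 bases before the annotated starts of Cxcl9 and Cxcl10. The horizontal axis is the distance from the start in bases, and each arrowhead is the start. Boxes are matches to the ISRE core, the NF-kB consensus and the letters TATAAA (labelled TATA box, by letters alone). Each gene has 1 ISRE core match, and the NF-kB matches are all in Cxcl10.

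Values were deposited as normalized log2 CPM (counts relative to the library total, on a log2 scale), with quantiles matched across libraries as the values show. Sums, shares and additive levels in CPM are therefore of matched values, not of plain scaled counts. The kit reads the 3' end of each transcript once, so levels of different genes can be compared without a correction for length. The tables were normalized separately, and no level in one is set against a level in the other. The depth was roughly estimated from the number of distinct values up to the median of a library, relative to that median in CPM. It ran from 3420000 to 11300000 reads in the in vitro libraries and from 3800000 to 11000000 in those of the co-culture table. Vim, a gene strongly expressed by mesenchymal-like tumour lines, was at 9.69 to 10.45 log2 CPM in all 19 libraries. Of the epithelial markers with a row in the co-culture table, Krt8, Krt18, Krt19 and Epcam ran from -3.53 to 1.21 log2 CPM and Cdh1 from -2.30 to 2.56 in 8 libraries. Anti-PD1 replicate 1 was the highest library for all 5, with Cdh1 at 4.44 and Epcam at 2.36. The labels do not say whether replicates were separate cultures, so p-values measure only the spread between these libraries.

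MC38 alone replicate 3 stood apart. It had the lowest depth of the co-culture table, and 547 genes lay on its lowest value against 145 and 170 in the other MC38 alone libraries. Its T cell markers (14 of 18 had a row) summed to 55.6 CPM, against 3.66 and 3.82 in MC38 alone replicates 1 and 2 and 149 to 180 in the libraries with OT1 T cells. Ifng was at 1.85 log2 CPM there, at -1.63 and -2.66 in the other MC38 alone libraries and at 6.27 to 6.66 with OT1 T cells. Gzmb, Cd2, Trbc2 and Nkg7 of replicate 3 also lay below all libraries with OT1 T cells, and Trbc1 lay above all of them. Its other T cell markers lay within the range of those libraries, such as Ptprc at 3.15 against 1.92 to 3.24 log2 CPM. The co-culture results are therefore given with and without MC38 alone replicate 3. Anti-PD1 replicate 3 has a title and a treatment field that call it untreated, while its description names the PD1 column. It was placed by that description, and its part in each result was checked by leaving it out. The description of isotype replicate 2 reads OT2 where the others read OT1.

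In untreated MC38, Cxcl10 was by far the most abundant CXCR3 ligand transcript. Its level was 4.71 and 4.53 log2 CPM in the 2 libraries, against 0.52 and 0.28 for Cxcl9 and -2.12 and -1.18 for Cxcl11. Untreated Cxcl9 lay on the 10th lowest value of each library and Cxcl11 on the 2nd and 4th, so both rested on a handful of reads. Cxcl10 made up 93.7% ± 0.472 (SD, n = 2) of the summed CPM of the 3 genes.

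TNF alone raised Cxcl10, and no rise of Cxcl9 was found. Cxcl10 was at 6.85 and 6.75 log2 CPM with TNF, above both untreated libraries, a 4.53-fold rise (log2 fold change 2.18, SE 0.26, adjusted p = 0.0139 in limma). Cxcl9 was at -0.40 and -0.16 log2 CPM, below both untreated libraries, and that difference did not pass the test (log2 fold change -0.68, SE 0.23, adjusted p = 0.63). Cxcl11 was at -0.16 and 0.89 log2 CPM, above both untreated libraries, and did not pass either (2.01, SE 0.48, adjusted p = 0.265). With TNF, Cxcl9 lay on the 7th lowest value of each library and Cxcl11 on the 8th and 14th, so these levels rested on few reads. Of all genes tested, 0.275% were called for TNF. The Cxcl10 call was lost without an intensity trend (adjusted p = 0.0645). It was also lost when any 1 of the TNF or untreated libraries was left out (0.0932 without untreated replicate 1, 0.144 without untreated replicate 2, 0.0997 without TNF replicate 1 and 0.121 without TNF replicate 2), while the rise stayed between 4.27-fold and 4.81-fold. Such a fit leaves 1 library in a group, which is assumed to vary like the other groups.

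IFNG alone raised both Cxcl9 and Cxcl10. Cxcl9 was at 2.58 and 2.74 log2 CPM, a 4.78-fold rise over untreated cells (log2 fold change 2.26, SE 0.23, adjusted p = 0.00208). Cxcl10 was at 7.25 and 7.31 log2 CPM, a 6.31-fold rise (2.66, SE 0.26, adjusted p = 0.00198). Cxcl11 was at 1.05 and 1.23 log2 CPM. Its IFNG libraries lay above both untreated ones, and the difference did not pass the test (2.79, SE 0.48, adjusted p = 0.0717), although it did when libraries were weighted by their spread (0.00881). The share of genes called for IFNG was 0.354%. On a log2(CPM + 1) scale, which shrinks the folds of low genes, the Cxcl9 rise was 3.15-fold.

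Between the 2 cytokines, the difference passed the test for Cxcl9 alone of the 3 genes. IFNG libraries exceeded TNF libraries 7.68-fold for Cxcl9 (log2 fold change 2.94, SE 0.23, adjusted p = 0.000578, with 0.542% of all genes called), or 4.01-fold on log2(CPM + 1). For Cxcl10 the same difference was 0.48 (95% interval -0.12 to 1.07) and for Cxcl11 it was 0.78 (-0.32 to 1.87), both with adjusted p = 0.999. IFNG libraries lay above TNF libraries for each of the 3 genes, but with 2 libraries a group this ordering alone carries little weight.

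TNF and IFNG together gave the highest in vitro level of each gene. Replicate 2 of the combination had the lowest estimated depth in vitro, 3420000 reads against 7220000 in replicate 1. On its lowest value lay 122 genes, against 13 to 49 in the other in vitro libraries. Cxcl9 reached 6.15 and 6.11 log2 CPM, a 52.9-fold rise over untreated cells (log2 fold change 5.73, SE 0.23, adjusted p = 1.09e-05). Cxcl10 reached 8.63 and 9.22 log2 CPM, a 19.8-fold rise (4.31, SE 0.26, adjusted p = 6.63e-05). Cxcl11 reached 5.69 and 4.77 log2 CPM, a 117-fold rise (6.88, SE 0.48, adjusted p = 0.000169). Ordered by the size of the log2 fold change among 12720 genes tested, Cxcl11 was the 2nd, Cxcl9 the 4th and Cxcl10 the 20th. All 3 passed where 9.02% of genes did, a share that moved widely in both directions between alternatives, and the 3 calls held under each alternative run. On a log2(CPM + 1) scale the change was 4.93 for Cxcl9 and 4.85 for Cxcl11.

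**Figure D2:**
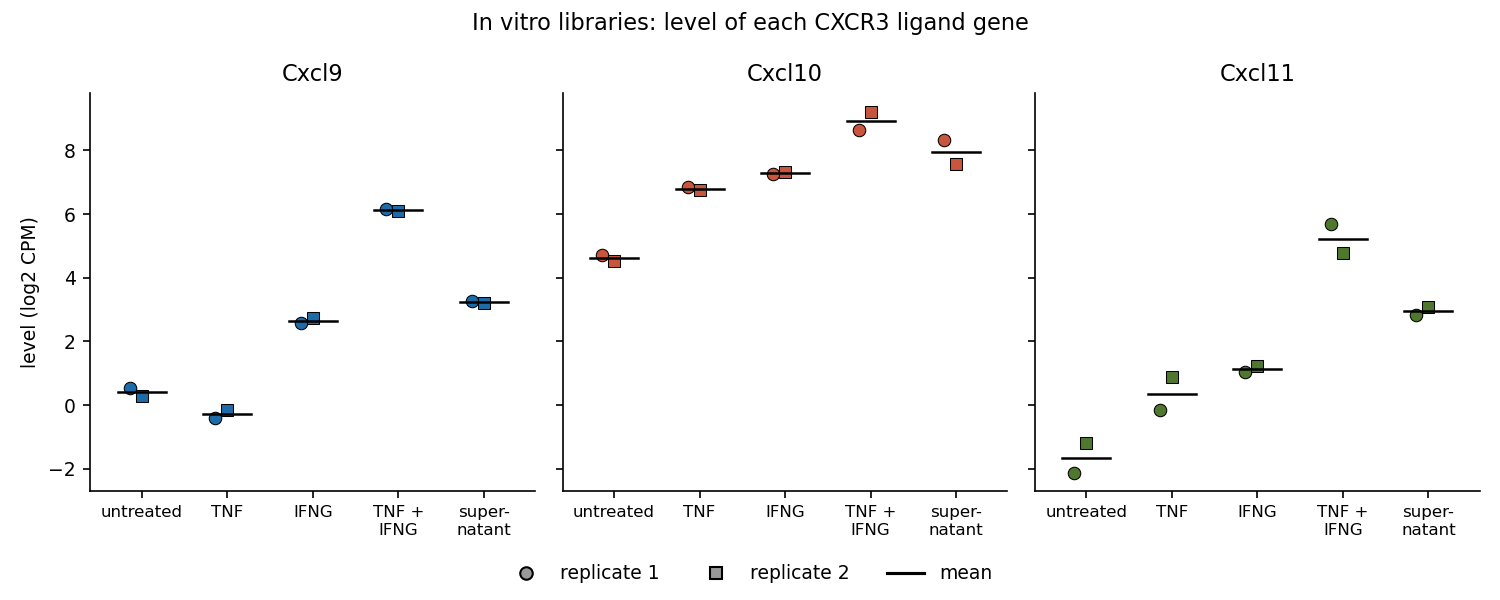
Level of Cxcl9, Cxcl10 and Cxcl11 in the in vitro libraries. The vertical axis is log2 CPM, points are single libraries with the replicate number shown by the symbol, and horizontal lines are group means (n = 2). For every gene the libraries with both cytokines lie above all others, and for Cxcl9 the TNF libraries lie below the untreated ones.

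The combination was also set against each cytokine alone. Against TNF alone, Cxcl9 rose 85.0-fold (log2 fold change 6.41, adjusted p = 8.22e-06), the smallest p-value of all genes in that comparison. Cxcl11 rose 29.2-fold (4.87, adjusted p = 0.00279) and Cxcl10 rose 4.36-fold (2.13, adjusted p = 0.0105), with 0.417% of genes called. On log2(CPM + 1) the rise was 38.9-fold for Cxcl9 and 16.6-fold for Cxcl11. The Cxcl10 call was lost when only the compared groups were fitted (adjusted p = 0.054), without TNF replicate 1 (0.0747), without TNF replicate 2 (0.115) and without replicate 2 of the combination (0.0676).

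Against IFNG alone, adding TNF raised Cxcl9 11.1-fold (log2 fold change 3.47, SE 0.23, adjusted p = 0.000792) and Cxcl11 17.0-fold (4.09, SE 0.48, adjusted p = 0.0164). Cxcl10 was higher in both libraries of the combination than in both IFNG libraries, a difference of 1.65 that did not pass the test (SE 0.26, adjusted p = 0.0675). It passed with library weights (0.028), without replicate 1 of the combination (0.0306) and without supernatant replicate 1 (0.02) or 2 (0.0204). The Cxcl11 call was lost when only the compared groups were fitted (0.089) and without IFNG replicate 1 (0.136) or 2 (0.105). Among all genes 0.236% were called.

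Whether the 2 cytokines acted on each gene more than additively was read on 2 scales. On the CPM scale, the sum of the separate gains of TNF and IFNG over the untreated level would give 5.82 CPM for Cxcl9, 242 for Cxcl10 and 3.24 for Cxcl11. The measured means were 70.0, 496 and 39.4 CPM, which are 12.0, 2.05 and 12.2 times those sums. Even the lower library of the combination was 11.8, 1.64 and 8.40 times the sum.

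On the log2 scale, where no interaction means that the folds multiply, Cxcl9 had an interaction of 4.15 (SE 0.32, adjusted p = 0.00492). TNF went with a log2 change of -0.68 in Cxcl9 without IFNG and of 3.47 with it. The change of -0.68 did not pass the test and rested on few reads. On log2(CPM + 1) these changes were -0.35 and 3.28, and the interaction was 3.63. Cxcl10 had -0.53 (95% interval -1.38 to 0.31, adjusted p = 0.962), with a measured mean of 496 CPM where multiplied folds would give 703. Cxcl11 had 2.08 (0.53 to 3.63, adjusted p = 0.962). The test called 2 genes of the table (0.0157%): Cxcl9, which was higher than multiplied folds, and Irf1, which was lower (-2.08). The Cxcl9 call was lost without untreated replicate 1 (adjusted p = 0.0514) or IFNG replicate 1 (0.0607), with the interaction at 4.03 and 4.07.

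Supernatant of a co-culture raised all 3 genes over untreated MC38. Cxcl9 was at 3.28 and 3.20 log2 CPM, a 7.16-fold rise (log2 fold change 2.84, SE 0.23, adjusted p = 0.000442). Cxcl10 was at 8.34 and 7.57 log2 CPM, a 10.1-fold rise (3.34, SE 0.26, adjusted p = 0.000442). Cxcl11 was at 2.85 and 3.08 log2 CPM, a 24.4-fold rise (4.61, SE 0.48, adjusted p = 0.00243). Every supernatant library lay above every untreated, TNF and IFNG library and below every library of the combination, for each gene. In groups of 2 libraries such an order can arise without a difference, and its share over all genes was not counted. Of all genes tested, 0.448% were called against untreated cells. On log2(CPM + 1) the rise was 4.50-fold for Cxcl9 and 6.60-fold for Cxcl11.

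The supernatant was not told apart from IFNG by the test. The differences were 0.58 for Cxcl9 (95% interval 0.07 to 1.10), 0.68 for Cxcl10 (0.08 to 1.27) and 1.82 for Cxcl11 (0.73 to 2.92), each with adjusted p = 1.00. In that comparison 1 gene of the table was called (0.00786%), Slc30a1, a zinc exporter gene named only because it was the sole call. Set against TNF, supernatant gave 11.5-fold higher Cxcl9 (log2 fold change 3.52, adjusted p = 0.000139), or 5.73-fold on log2(CPM + 1). Cxcl10 differed by 1.16 (adjusted p = 0.181, and 0.0441 without supernatant replicate 2) and Cxcl11 by 2.60 (adjusted p = 0.0688), with 0.645% of genes called. Compared with the combination, supernatant left Cxcl9 7.39-fold lower (-2.89, adjusted p = 0.00247). Cxcl10 differed by -0.97 (adjusted p = 0.166) and Cxcl11 by -2.27 (0.113), where 0.236% of genes were called.

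Across the 5 in vitro groups, the order of the levels was untreated, TNF, IFNG, supernatant and combination for Cxcl10 and Cxcl11. For Cxcl9, TNF came below untreated. Several neighbours in the order did not differ by the test. These were TNF and untreated for Cxcl9 and Cxcl11, and TNF and IFNG for Cxcl10 and Cxcl11. They also included IFNG and supernatant for all 3 genes, and supernatant and the combination for Cxcl10 and Cxcl11.

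With OT1 T cells and isotype antibody, the 3 genes rose further from their own baseline than nearly all other genes. Cxcl9 was at -1.03, 0.03 and 2.04 log2 CPM in MC38 alone and at 9.07, 9.35 and 9.08 with T cells, a 453-fold rise (log2 fold change 8.82, SE 0.58, adjusted p = 4.68e-06). Cxcl10 was at 4.96, 4.77 and 5.66 log2 CPM alone and at 11.31, 11.29 and 11.10 with T cells, a 68.6-fold rise (6.10, SE 0.20, adjusted p = 4.52e-08). Cxcl11 was at 0.26, -0.21 and 1.75 log2 CPM alone and at 7.93, 7.80 and 7.67 with T cells, a 147-fold rise (7.20, SE 0.39, adjusted p = 1.12e-06). Cxcl9 had the largest log2 fold change of the 12707 genes tested, Cxcl11 the 3rd and Cxcl10 the 11th. The share of genes called was 13.9%.

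The control libraries set the size of these folds. MC38 alone replicate 3, the library with T cell marker transcripts, was the highest of the 3 controls for every gene, and Cxcl9 in replicates 1 and 2 lay on the 4th and 8th lowest value. Without replicate 3 the Cxcl9 rise was 814-fold (log2 fold change 9.67), Cxcl11 rose 219-fold (7.78) and Cxcl10 rose 82.4-fold (6.36). Leaving out MC38 alone replicate 1 in its place gave 8.14 for Cxcl9. On a log2(CPM + 1) scale the Cxcl9 change was 7.86 and the Cxcl11 change 6.42.

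With OT1 T cells and anti-PD1, the genes reached levels that overlapped those with isotype. Cxcl9 was at 9.39, 9.06 and 9.15 log2 CPM, Cxcl10 at 11.62, 11.47 and 11.25, and Cxcl11 at 7.91, 7.70 and 8.03. Every one of these libraries lay above every library of MC38 alone, an order whose share over all genes was not counted. The rises over MC38 alone were 464-fold for Cxcl9 (adjusted p = 4.57e-06), 79.6-fold for Cxcl10 (3.85e-08) and 156-fold for Cxcl11 (1.07e-06), where 16.1% of genes were called. Without MC38 alone replicate 3 they were 833-fold, 95.6-fold and 232-fold. Without MC38 alone replicate 1 the Cxcl9 rise was 288-fold, and on log2(CPM + 1) the rises of Cxcl9 and Cxcl11 were 237-fold and 90.5-fold. Leaving out anti-PD1 replicate 1, the library with the highest epithelial markers, gave 435-fold, 74.9-fold and 154-fold. Without anti-PD1 replicate 3, the library with conflicting labels, they were 472-fold, 85.3-fold and 148-fold, and 9.66% of genes were called.

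No effect of the PD1 antibody on the 3 genes was detectable. The log2 difference between anti-PD1 and isotype libraries was 0.03 for Cxcl9 (95% interval -1.25 to 1.32), 0.22 for Cxcl10 (-0.24 to 0.67) and 0.08 for Cxcl11 (-0.79 to 0.95), each with adjusted p = 1.00. The isotype and anti-PD1 libraries overlapped for all 3 genes. Without anti-PD1 replicate 3 the differences were 0.059, 0.31 and 0.0057, and none passed. In limma 0 genes of the table were called (0%), and 347 had an unadjusted p under 0.05. The intervals leave room for a change of about the size of those bounds in either direction.

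**Figure D3:**
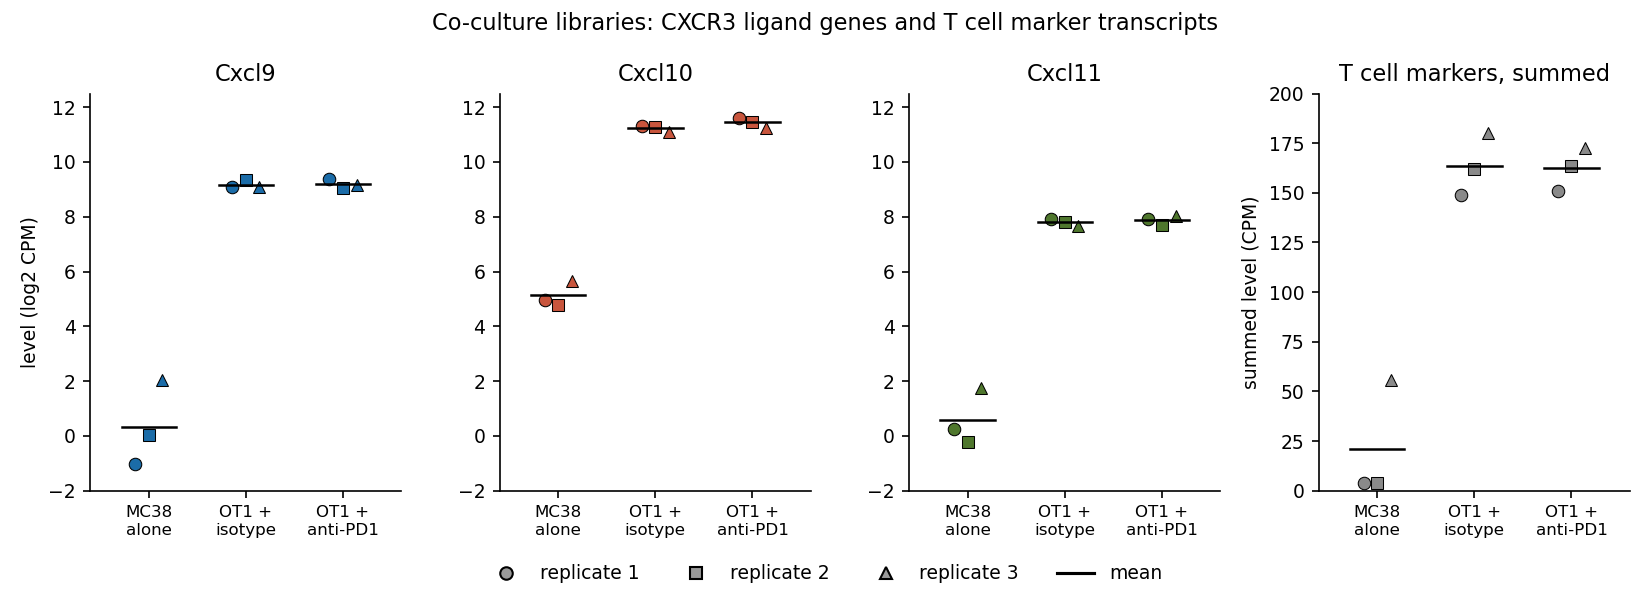
Level of Cxcl9, Cxcl10 and Cxcl11 (log2 CPM) and the summed level of 14 T cell marker genes (CPM) in the co-culture libraries. Points are single libraries with the replicate number shown by the symbol, and lines are group means (n = 3). MC38 alone replicate 3 is the highest control in each panel, with 55.6 CPM of T cell markers, and the isotype and anti-PD1 libraries overlap. Ifng is the largest marker of that sum in the libraries with OT1 T cells.

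T cell marker transcripts were present in the MC38 libraries of the co-culture. All 6 libraries with T cells carried 149 to 180 CPM of T cell markers, Ifng was the largest of them, and Cd8a ran from 1.19 to 2.41 log2 CPM. Cd8a was on the lowest value of the library in MC38 alone replicates 1 and 2. In MC38 alone replicate 3 it was at 1.75 log2 CPM, within the range of the libraries with T cells. How much of the CXCR3 ligand transcript came from T cells was not tested, and in such bulk samples a change in the number of cells and a change in RNA per cell cannot be told apart. Myeloid and antigen-presenting cell markers, other possible sources of these chemokines, had 2 of 13 rows and summed to 3.57 to 9.10 CPM with T cells and 6.04 to 10.5 CPM in MC38 alone. In vitro, where no T cell was added, 1 of 18 T cell markers had a row (Lck), at 0.109 to 5.07 CPM, the highest in replicate 2 of the combination.

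**Figure D4:**
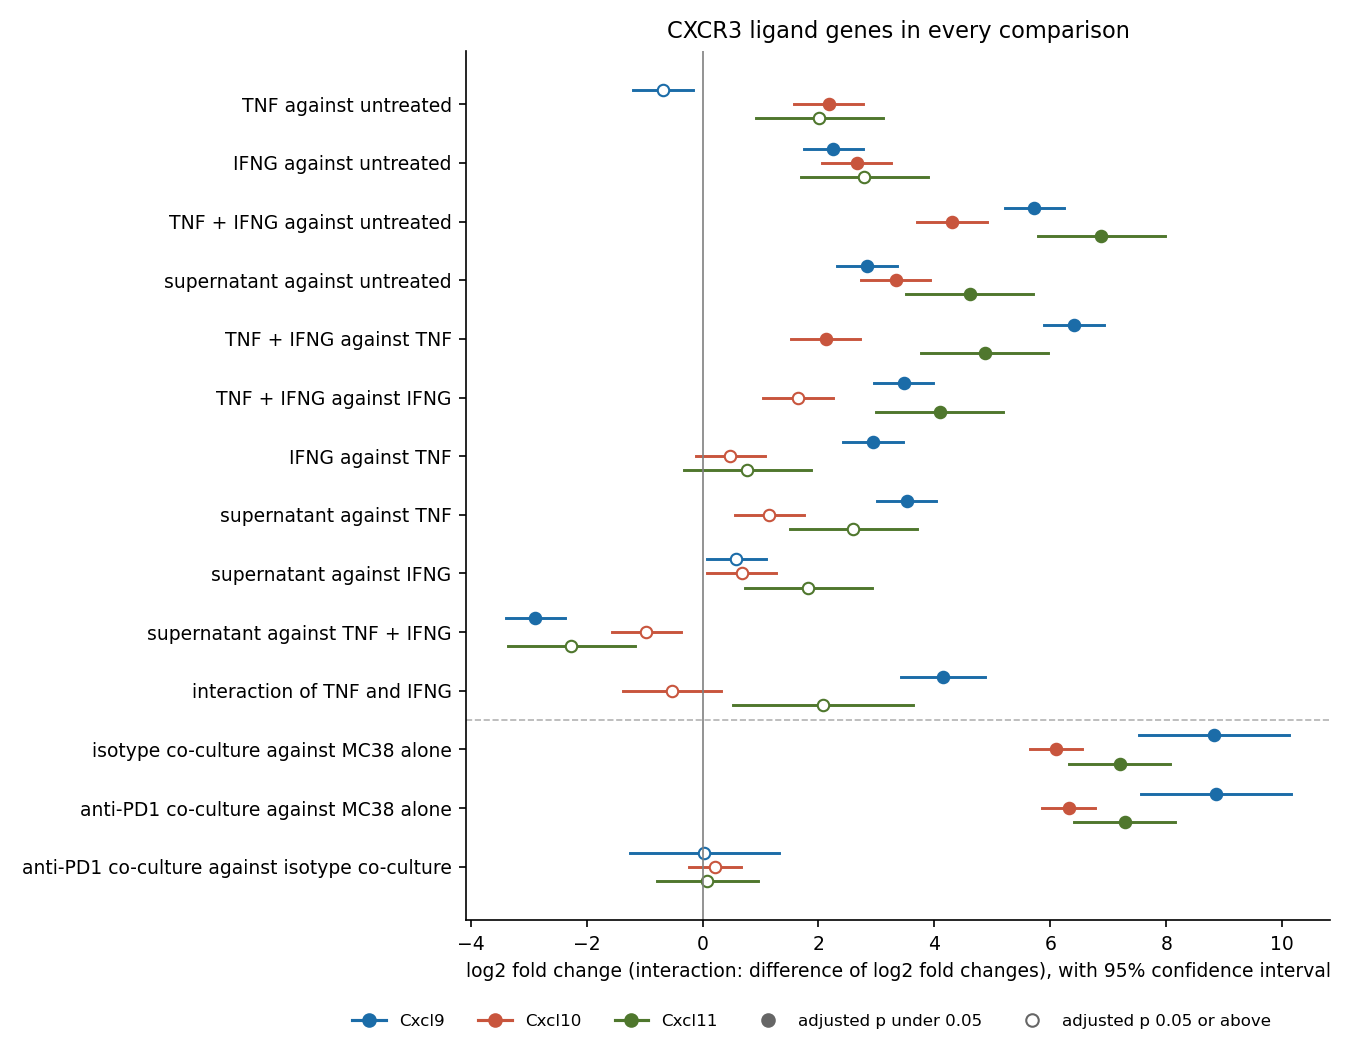
Log2 fold change of Cxcl9, Cxcl10 and Cxcl11 in each of the 14 comparisons, with 95% confidence intervals from limma. Filled points have an adjusted p under 0.05, and the dashed line separates the in vitro comparisons from the co-culture ones, which come from separately normalized tables. Cxcl9 is the sole filled point of the 3 genes for IFNG against TNF, supernatant against TNF, supernatant against TNF + IFNG and the interaction, and all 3 are filled in both comparisons of co-culture with MC38 alone.

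The mix of the 3 transcripts changed along with their sum. Their summed level was 26.3 ± 2.10 CPM (SD, n = 2) before treatment. It was 114 ± 5.02 CPM after TNF, 164 ± 5.43 after IFNG, 275 ± 94.8 after supernatant and 606 ± 123 after both cytokines. Cxcl10 supplied 98.1% of that sum with TNF, 94.8% with IFNG, 93.3% with supernatant and 81.3% with the combination, where Cxcl9 supplied 11.8% and Cxcl11 6.93%. In co-culture the sum went from 40.0 ± 15.7 CPM (SD, n = 3) in MC38 alone to 3211 ± 240 with isotype and 3636 ± 405 with anti-PD1. The Cxcl10 share was 91.9% in MC38 alone, 75.0% with isotype and 77.1% with anti-PD1, and the Cxcl9 share was 4.02%, 18.0% and 16.3%. In MC38 alone the Cxcl9 share was 1.49% and 3.49% in replicates 1 and 2 and 7.06% in replicate 3. Within libraries, Cxcl10 exceeded Cxcl9 by 3.62 to 5.99 log2 units in MC38 alone (mean 4.79) and by 1.94 to 2.24 with isotype (mean 2.06). These shares are descriptions and were not tested.

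**Figure D5:**
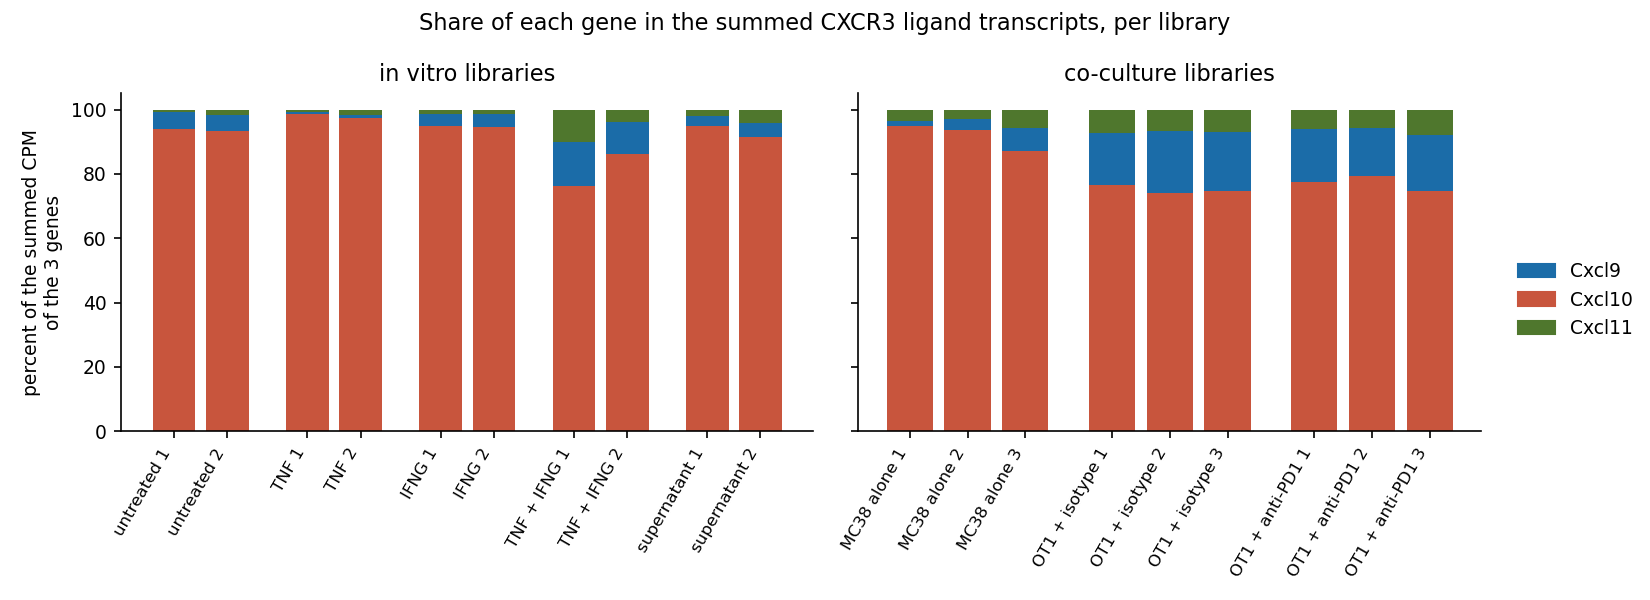
Share of Cxcl9, Cxcl10 and Cxcl11 in the summed CPM of the 3 genes, per library, as stacked bars that reach 100 percent. The left panel holds the 10 in vitro libraries and the right panel the 9 co-culture libraries. Cxcl10 is the largest part of every bar, and Cxcl9 is larger in the libraries with both cytokines and with OT1 T cells than in untreated cells.

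In the co-culture libraries with T cells, Cxcl10 ranked between 27 and 55 among all genes by level, Cxcl9 between 202 and 255 and Cxcl11 between 549 and 712. In MC38 alone the same genes ranked between 2906 and 4580, 9649 and 12497, and 10029 and 12081. In vitro, the highest rank of Cxcl10 was 240, in the combination.

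Genes of the IFNG pathway were counted beside the ligands. Of 15 tested, 5 rose with IFNG (0.354% of all genes were called), 1 with TNF (0.275%), 9 with both cytokines (9.02%) and 6 with supernatant (0.448%), and none fell. Irf1 rose in each of these comparisons (log2 fold change 2.47 with TNF, 3.06 with IFNG, 3.44 with both and 3.18 with supernatant). The median of the 15 genes was 1.32 with IFNG, against 0.04 over all genes tested. In isotype co-culture, where 13.9% of all genes were called, 12 of the 15 rose and none fell, including Irf8 (4.53), Irf1 (3.35) and Socs1 (3.01), which encodes a feedback inhibitor of JAK kinases. Irf8 was at -1.63, -2.66 and 1.07 log2 CPM in MC38 alone, in replicate 2 on the lowest value of the library, so its fold rested on few reads. The part of T cell RNA in these rises was not tested. With anti-PD1, where 16.1% of all genes were called, 13 rose and Jak1 fell by 0.68. Without MC38 alone replicate 3 the counts were 13 up with isotype and 13 up and 1 down with anti-PD1. Without anti-PD1 replicate 3, 11 rose and none fell with anti-PD1, so the Jak1 call was lost.

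Of 19 genes of the TNF and NF-kB pathway, 4 rose with TNF (0.275% of all genes were called): Nfkbia (3.39) and Nfkbie (3.17), which encode NF-kB inhibitors, Tnip1 (1.57) and the subunit gene Relb (1.29). With IFNG and with supernatant none was called, and Nfkbia was at -0.15 and 0.30. With both cytokines, where 9.02% of all genes were called, 9 rose and Chuk fell by 0.81. In co-culture 11 rose and none fell with isotype (13.9% of all genes called) and with anti-PD1 (16.1%), among them Nfkbia (3.91 with isotype) and Tnfaip3 (2.55), and the counts without MC38 alone replicate 3 were also 11. Without anti-PD1 replicate 3 the count with anti-PD1 was 10. The median was 0.90 with isotype, against -0.06 over all genes tested.

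Other chemokine ligand genes were called with TNF and not with IFNG in vitro. Of 7 with a row, 3 rose with TNF, where 0.275% of all genes were called: Cxcl1 (3.47), a neutrophil attractant, Ccl2 (3.22), a monocyte attractant, and Ccl5 (1.33), a T cell attractant. With IFNG and with supernatant none of the 7 was called, and Cxcl1 was at -1.61 and -0.93. With both cytokines 4 rose (9.02% of all genes were called), including Ccl2 (1.67) and Cxcl1 (2.65). In co-culture, 11 of 13 with a row rose with each antibody, led by Xcl1 (6.30 with isotype), Ccl3 (5.64) and Ccl2 (5.02), where 13.9% (isotype) and 16.1% (anti-PD1) of all genes were called. The counts were also 11 of 13 without MC38 alone replicate 3 and without anti-PD1 replicate 3. Xcl1 and Ccl3 are known products of activated T cells, and their part from T cell RNA was not tested.

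Of 18 other genes within 250 kb of Cxcl10, 6 had a row. None of the 6 was called with TNF, IFNG, both or supernatant, where 0.275% to 9.02% of all genes were called. In co-culture Sdad1, on the far side of Cxcl9, rose by 0.74 with isotype and 0.55 with anti-PD1, and Scarb2 rose by 0.52 and 0.46, where 13.9% and 16.1% of all genes were called. The other 4 were not called, and the count with anti-PD1 was 1 without MC38 alone replicate 3 and 1 without anti-PD1 replicate 3. Among the other genes of the CXCR3 axis, which were the receptor gene Cxcr3, Pf4, Ackr1, Ackr3 and Dpp4, Ackr3 alone had a row. Ackr3, which encodes a scavenging receptor for CXCL11 and CXCL12, had log2 fold changes of -1.23 with isotype and -2.27 with anti-PD1 (adjusted p = 0.0558) and -1.38 with both cytokines, and passed no test.

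The genes whose levels ran most like each ligand over the 10 in vitro libraries were ranked by Pearson's r among 3164 genes whose group means spanned at least 1 log2 unit. Cxcl10 was closest to Parp14 (r = 0.960), an ADP-ribosyltransferase gene, Gbp2b (0.960), a guanylate-binding GTPase gene, and Rufy1 (0.960). Cxcl11 was closest to Irf2 (0.971), Gbp2b (0.955) and Gbp3 (0.947). Cxcl9 was closest to Gm42416 (0.941), Serpina3f (0.939) and Gm38182 (0.938), and the 2 predicted genes had the same untreated mean (2.75 log2 CPM). Between the ligands, r was 0.806 for Cxcl9 and Cxcl10, 0.905 for Cxcl9 and Cxcl11 and 0.922 for Cxcl10 and Cxcl11. These libraries share group means, so r describes the group pattern and carries no test.

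In the 9 co-culture libraries, where MC38 alone sits apart from the rest, r was high for many genes. Cxcl9 was closest to Gbp3 (0.999), Iigp1 (0.999) and Gvin1 (0.997), all genes of interferon-inducible GTPases. Cxcl10 was closest to Rsad2 (0.998), which encodes the antiviral protein viperin, Nfkbia (0.997) and Ifi205 (0.997). Cxcl11 was closest to Ccrl2 (0.999), Gm12250 (0.998) and Tmcc3 (0.998). Gbp3 was among the 3 closest genes of Cxcl11 in vitro and of Cxcl9 in co-culture.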

How the data were processed

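RNA of MC38 cells was sequenced from 3' ends (QuantSeq), per the labels' protocols. Of 28 libraries, 19 were used; 9 of OT1 T cells were not analysed here. Both tables hold log2 CPM deposited by the authors, with quantiles matched across libraries as the values show. FastQC, cutadapt 1.7, HISAT2, featureCounts, Subread and limma are named in the submitters' processing notes. The log2 scale was inferred from the values, which sum to 993229 to 998505 CPM per library after 2 is raised to them.

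All genes of a table with a log2 value of at least 0 in 2 (in vitro) or 3 (co-culture) libraries were fitted together in limma 3.58.1 (R 4.3.3; 1 mean per group, intensity trend), giving 12720 and 12707 genes. P-values are 2-sided and Benjamini-Hochberg adjusted over all of them, with 0.05 as the threshold. The fit was tested on simulated data. The members and lists were chosen with earlier results of these data known. Named genes are the members, the 3 genes with the highest r per member and table, and lists of the IFNG pathway, the TNF and NF-kB pathway, the CXCR3 axis, chemokine ligands, neighbours and cell type markers. Alternatives were the fit without trend, with only the compared groups, without or with a stricter filter (log2 of at least 1), on log2(CPM + 1), with library weights, with a replicate block, and without each library in turn. List counts without MC38 alone replicate 3 or anti-PD1 replicate 3 were added after seeing the data. Some genes of the lists are counted but not reported here.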

Additional observations from a re-analysis of the deposited data

Results flagged for a closer look

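Cxcl9 was picked out because its response to IFNG differed with TNF present or absent, by a test of that difference. The change with IFNG was 2.26 on the log2 scale without TNF and 6.41 with it, a difference of 4.15 (limma interaction term, adjusted p = 0.00492). On log2(CPM + 1) that difference was 3.63. Irf1 was the other gene called by that term, with a difference of -2.08. The gap test for outlying samples was not run on groups of 2 or 3 libraries.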

How the results depend on the processing

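Of 42 results for the 3 genes, 24 passed the threshold, and 32 kept their direction and their side of it under every alternative run. Dropping the filter, making it stricter or adding the replicate block changed none. Without the intensity trend, Cxcl10 with TNF (2.18) no longer passed. With library weights, Cxcl11 with IFNG (2.79) and Cxcl10 with both cytokines against IFNG (1.65) passed. With only the compared groups fitted, Cxcl10 with both against TNF (2.13) and Cxcl11 with both against IFNG (4.09) did not. On log2(CPM + 1), Cxcl11 with supernatant passed against TNF (1.92) and against both cytokines (-2.13). Leaving out each library in turn gave 2.09 to 2.27 for Cxcl10 with TNF, 1.83 to 2.42 for Cxcl10 with both against TNF, 1.35 to 1.94 for Cxcl10 with both against IFNG, 3.63 to 4.55 for Cxcl11 with both against IFNG, 0.77 to 1.54 for Cxcl10 with supernatant against TNF, and 4.03 to 4.28 for the Cxcl9 interaction. It gave -0.059 to 0.13 for Cxcl9 with anti-PD1 against isotype, uncalled throughout, which changed sign without isotype replicate 1 (-0.014), isotype replicate 3 (-0.011) or anti-PD1 replicate 1 (-0.059). The cause of these changes was not tested. Same-numbered libraries did not deviate together (correlations of -0.29 to 0.09 in vitro and -0.05 to 0.11 in co-culture), so the numbers were not taken as pairs. With the replicate block the Cxcl9 interaction was 4.15.

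Counts of genes called over the table ranged from 11 to 72 for TNF against a main count of 35, 29 to 480 for IFNG (45), 88 to 2155 for both cytokines (1147), 37 to 65 for supernatant (57), 1006 to 2386 for isotype co-culture (1761), 1226 to 2571 for anti-PD1 co-culture (2050) and 0 to 1 for anti-PD1 against isotype (0). For both cytokines they ranged from 16 to 256 against TNF (53) and 3 to 270 against IFNG (30), for IFNG against TNF from 37 to 172 (69), for supernatant from 27 to 86 against TNF (82), 0 to 12 against IFNG (1) and 4 to 486 against both cytokines (30), and for the interaction from 0 to 9 (2). Low counts limit Cxcl9 and Cxcl11 in untreated cells, with TNF and in MC38 alone, and Cxcl11 with IFNG.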
